A study of Mus musculus with 2 samples.

Results

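The results below describe 795 splice junctions that span 100 kb or more in polyadenylated RNA of the mouse gonadal fat pad, the white fat attached to the gonads. A splice junction is the join left in an RNA when an intron is removed, and a sequencing read that crosses the join counts as 1 read of that junction. The members were taken from a deposited table of 515046 junctions on the mouse build mm9. They are the rows whose names carry A = 1 and C = 1 and whose span is 100000 bp or more. The table does not define A or C. Of the 174017 junctions with both at 1, called flagged junctions here, the members made up 0.457%. The tissue came from C57BL/6J mice, 8 weeks old, with males and females pooled by label, and no treatment or second group was given. RNA longer than 200 nt was read as stranded pairs of 76 nt in 2 libraries, biological replicates 1 and 2, which carry the same donor identifier, so the number of mice behind them is unknown. The junction table splits each count into R1 and R2, and the sources used here do not tie R1 or R2 to a library.

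Each intron starts at a donor site next to the upstream exon and ends at an acceptor site next to the downstream exon. RNA polymerase has to copy the whole intron before the acceptor exists in the RNA, and very long introns are known mostly from large genes for adhesion, signalling, scaffolding and gene regulation. Many such genes are known for their roles in neurons, and fat expresses a set of them in adipocytes, stromal cells and vessels.

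All values over the table are in reads, and no comparison had a test, because there was 1 group of 2 libraries. R1 held 19172220 junction reads and R2 held 21609924, of which the members held 17136 and 17964. Expected counts over Ensembl genes summed to 47106979 in replicate 1 and 54129473 in replicate 2. The 6 adipocyte markers ranged from 92.1 to 6724 TPM in replicate 1 and from 575 to 3717 TPM in replicate 2, where TPM is the authors' transcript abundance scaled to a fixed total. All 6 markers of epididymal epithelium, the lining of the sperm duct next to this fat, were also high, from 1453 to 9518 TPM and from 1539 to 6082 TPM. They summed to 30536 and 20469 TPM in replicates 1 and 2, above the 12697 and 10777 TPM of the 6 adipocyte markers. Of 6 neuron markers, 2 reached 1 TPM, with maxima of 10.1 and 7.56 TPM. The part of these cell types in the values below was not tested.

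Genes were named by matching chromosome, strand and intron length exactly to GENCODE M21, an annotation on mm10, since no mm9 annotation was at hand and no coordinate was converted. For 773 of the 795 members the length matched an intron of 1 gene, for 4 it matched introns of several genes and for 18 it matched none. An annotated intron whose length differs between the builds would also go unmatched. On the opposite strand 1 member matched. The named members ran in the same order along each chromosome in both builds. The 773 members fell in 547 genes, 536 of them protein-coding.

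The exon ends that meet at 8 of the members are shown because these junctions held the most reads among those inside coding sequence of the transcript used. Each is 30 bases of the spliced RNA, 5′ to 3′, from GENCODE M21 transcripts, with the last 15 bases of the upstream exon in lower case and the first 15 bases of the downstream exon in capitals.
Ablim1 intron 1: ccatgtccacccgagTGGCCCATCCTCAGG
Trappc9 intron 16: cttggccacgtcaagACTCTGGAAGCTGTC
Msra intron 6: cgatccctgtaacagCCAAACACCATGTCA
Babam2 intron 6: accccgaattgagcaTGCACTCGGAGGCTC
Galnt18 intron 1: aacagcatatccaagAGGCTCCTGCCAAGC
Nfib intron 2: acgtgcaggagcaagATTCTGGACAATCAG
Cdh13 intron 2: agcctgtcctaaactTGACCTTCAATGACT
Cdh13 intron 6: aagggtcacccacagGGACCACGGTGATGC
Over the 773 named members, the last base of the upstream exon was G in 81.5%, and the last pair of bases was AG in 57.1%. Babam2 intron 6 and Cdh13 intron 2 differ from that pattern in the sequences above, ending in other bases. The first base of the downstream exon was G in 44.8%. The upstream exon had a median length of 175 nt and the downstream exon 135 nt. Where the long intron was the first of its transcript, the upstream exon had a median of 338 nt. Intron numbers and upstream exons depend on the transcript chosen for each member. For Msra, 4 of the 9 shorter introns of that transcript were matched to a listed junction, and the intron just before the member was not. In another annotated Msra transcript the same intron is number 1.

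The members were thinly read compared with flagged junctions as a whole. Their reads had a median of 9 (quartiles 3 and 40.5, maximum 4887), against 42 (quartiles 9 and 152) for all flagged junctions. In R1 alone the member median was 5 and in R2 alone it was 4. A single read supported 115 members (14.5%), against 6.28% of all flagged junctions, and 89 members reached 100 reads. Reads in both R1 and R2 were found for 578 members (72.7%), against 87.0% of flagged junctions, while 111 had reads in R1 only and 106 in R2 only. The authors' irreproducible discovery rate, IDR, is a fraction in which small values mark features that replicates rank similarly. It was 0.1 or less for 468 members (58.9%), against 80.4% of flagged junctions. Small values also occurred at unequal reads, such as 0.001 for a Zfp385b junction with 3 reads in R1 and 25 in R2. The IDR shares were not compared at equal read numbers.

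Across flagged junctions the reads per junction were lower in each longer class of span. Junctions under 1 kb had a median of 60 reads, those of 1 to 10 kb had 36, those of 10 to 50 kb had 24 and those of 50 to 100 kb had 19. The 653 members of 100 to 200 kb had a median of 10 reads, and the 142 members of 200 kb or more had 6. Within the members the rank correlation of reads with span was weak (Spearman rho of -0.10, n = 795 junctions that share both libraries). At the edge of the rule, the shortest member spanned 100113 bp, in Chchd6 (chr6:89417468-89517580), with 53 reads in R1 and 64 in R2. The longest flagged junction left out spanned 99904 bp and matched Dscaml1 (chr9:45258712-45358615), with 1 read in R1 and 0 in R2.

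**Figure D1:**
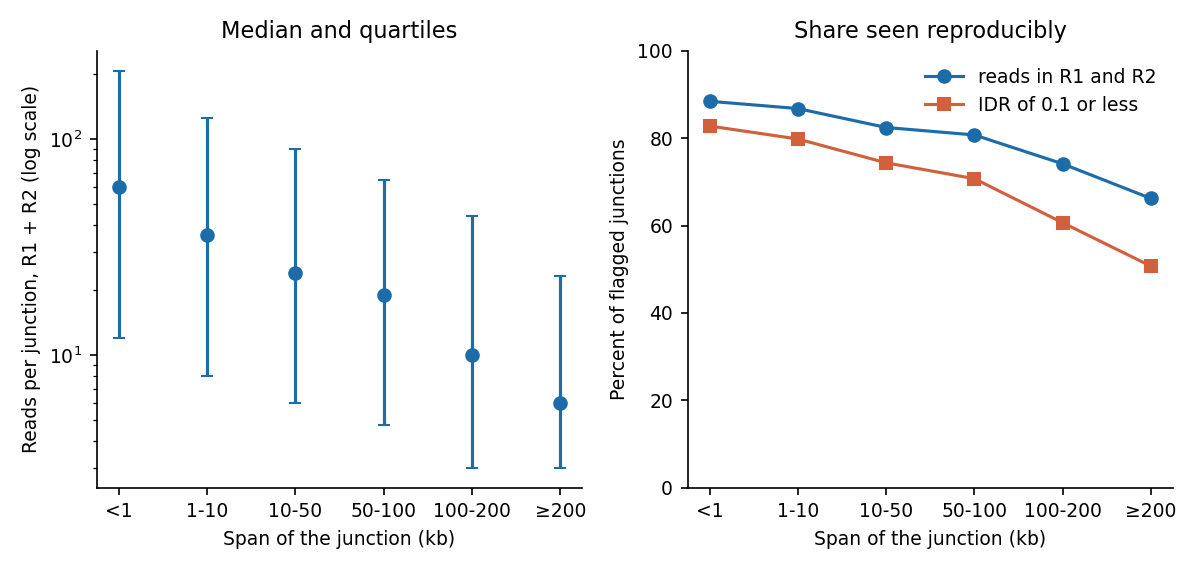
Left, median (points) and quartiles (bars) of reads per flagged junction, R1 plus R2 on a log axis, by class of span in kb; right, percent of each class with reads in both R1 and R2 (circles) and with an IDR of 0.1 or less (squares). The median falls from 60 reads under 1 kb to 6 reads at 200 kb or more, and both shares are lowest in that last class, at 66.2% and 50.7%.

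The lower share seen in both R1 and R2 went with the lower read numbers. Among junctions of 2 to 4 reads, 48.8% of members and 47.9% of flagged junctions had reads in both. With 5 to 9 reads the shares were 87.6% and 88.1%, and with 10 to 19 reads they were 98.9% and 98.7%. At equal read numbers the members and all flagged junctions lay within 1 percentage point of each other. Fewer than 5 reads were held by the 115 members with 1 read and the 166 with 2 to 4.

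The most read member was the first intron of Ghr, which encodes the growth hormone receptor. This junction (chr15:3408009-3532999, minus strand, 125 kb) had 1920 reads in R1 and 2967 in R2, or 13.9% of all member reads, and it lies in the 5′ UTR. It is the only member above 1000 reads, and R2 was the higher side. Its donor sent 97.8% of its reads to this acceptor (exact binomial 95% interval 97.4 to 98.2%), and the acceptor took 95.6% of its reads from this donor. The 7 shorter junctions of the same transcript had a median of 1149 reads, so the long one stood at 4.25 times that median. The junction that follows it in the transcript had 2578 reads. Ghr was also the named gene of highest TPM, at 126 in replicate 1 and 167 in replicate 2.

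Ghr held 3 further members that start at other donors or end at another acceptor. A donor a short way downstream of the main one joined the same acceptor with 34 reads in R1 and 71 in R2. Another donor joined it with 2 reads in each, and the main donor reached a more distant acceptor, over 194 kb, with 9 and 15 reads. Against the 5110 reads that enter the shared acceptor, the first of these made up 2.05%.

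The next members had far fewer reads than Ghr, and the 10 most read members together held 26.6% of member reads. Ablim1, which encodes an actin-binding protein with LIM domains, had 377 reads in R1 and 300 in R2 at its first intron (chr19:57247950-57389182). Trappc9, a subunit of a vesicle tethering complex, had 284 and 302 at intron 16 (chr15:72587789-72733986). Msra, an enzyme that repairs oxidised methionine, had 248 and 330 (chr14:64932593-65059546). All 3 lay within 2-fold between R1 and R2 after scaling, with log2 ratios of R2 to R1 of -0.50, -0.08 and 0.24. Babam2, a subunit of complexes that remove ubiquitin, had 246 and 290 reads (chr5:32203538-32303733), and Galnt18, a family member of the enzymes that start O-linked glycans, had 211 and 241 (chr7:118759999-118922826). The first intron of Tbl1x, a subunit of a nuclear receptor corepressor, had 207 and 208 (chrX:74756609-74878884). These were also close to equal between R1 and R2.

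Nfib, a transcription factor of the nuclear factor I family, was the exception among the 15 most read members, with 279 reads in R1 and 149 in R2 (chr4:82029566-82144141, log2 ratio -1.07). The remaining members of the top 15 were in Cdh13, Aig1, Slit3, Pam, Parva and Ntn1. Aig1, a hydrolase of fatty acid esters, had 187 and 173 reads. Slit3, a secreted guidance protein, had 186 and 141 across 273 kb (chr11:35048411-35321724), the longest span of the 15. Pam, which amidates secreted peptides, had 170 and 156. Parva, an adaptor of focal adhesions, had 158 and 162, and Ntn1, which encodes the guidance protein netrin-1, had 172 and 135.

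**Figure D2:**
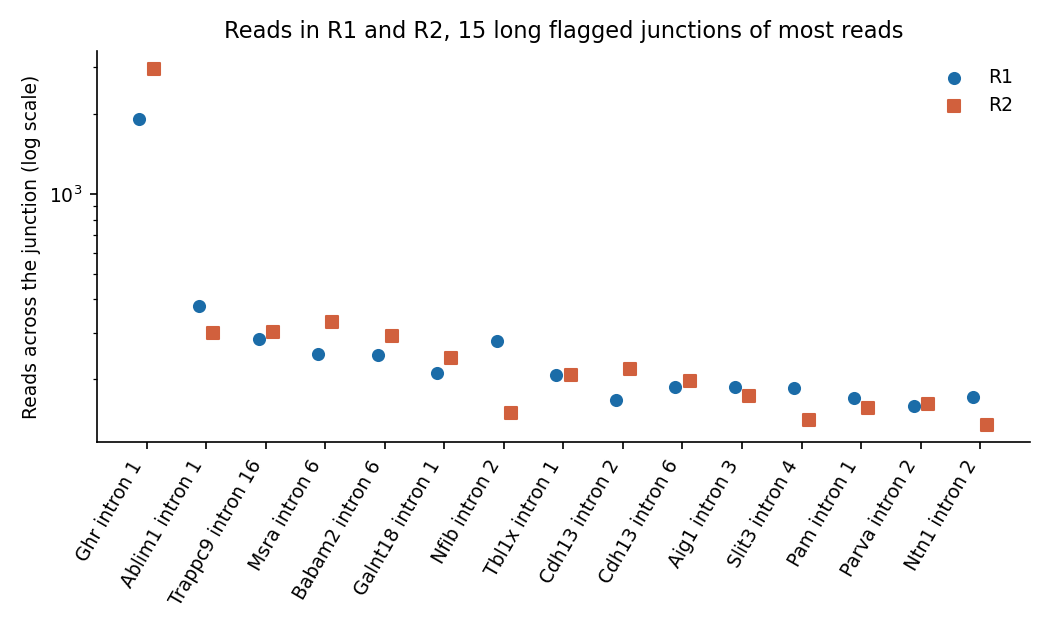
Reads in R1 (circles) and R2 (squares), on a log axis, for the 15 long flagged junctions of most reads, each labelled with its gene and the number of the intron in the host transcript. Ghr stands apart with 1920 and 2967 reads, and Nfib is the 1 junction of the 15 that is over 2-fold apart after scaling.

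Several genes held more than 1 member. There were 398 genes with 1 member and 149 with 2 or more, up to 6 in Zbtb20. Cdh13 encodes T-cadherin, an adhesion protein that binds adiponectin, and 5 of its introns were members with similar reads in R1 and R2. Intron 2 had 167 and 219 reads (chr8:121029616-121198917), intron 6 had 187 and 197 (chr8:121492094-121619084), and intron 7 had 101 and 110. Intron 5 had 87 and 85, and intron 1, of 222 kb, had 52 and 57. All 5 lie in 1 host transcript, and the transcripts with each of them held most of the gene's TPM in both libraries, 93.0% for introns 1 and 2 in replicate 1. Their read sums still spread from 109 to 386. The gene stood at 21.1 and 20.7 TPM.

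In other genes 1 or a few members held most reads. Zbtb20, a zinc finger repressor, had 296, 63, 17, 5, 3 and 2 reads at its 6 members. The RNA-binding protein gene Rbms3 had 232, 74, 1, 1 and 1. Etl4 had 34, 4, 3, 2 and 1 reads. Fhit, a hydrolase gene across a fragile site, had 27, 21, 5, 2 and 1, and Macrod2, which removes ADP-ribose from proteins, had 5, 5, 3, 2 and 1. Some of these share an end: 80 members shared their acceptor with another member and 47 shared their donor.

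The longest members were thinly read. The longest of all was the first intron of Kcnd2, a potassium channel gene, at 497 kb (chr6:21167414-21664134), with 1 read in R1 and 8 in R2 while its gene stood at 0.05 and 0.14 TPM. Among members with 10 or more reads the longest spanned 479 kb on chromosome 13 (chr13:110051140-110530594) with 5 reads in R1 and 6 in R2. Its mm9 length matched no mm10 intron, which does not show that it is unannotated. Another unnamed junction of 298 kb ended at the same acceptor with 5 and 10 reads. Kcnip1, which encodes a potassium channel partner, had 6 and 15 reads over 347 kb. The adhesion gene Sdk1 had 14 and 10 over 340 kb, and the junctional scaffold gene Magi1 had 16 and 12 over 340 kb. Smyd3, a lysine methyltransferase gene, had 34 and 20 over 311 kb. Fhit had 16 and 11 over 308 kb. Negr1, a neuronal adhesion gene, had 29 and 32 over 297 kb (chr3:156225317-156522400), and its reads were the most even of these 8.

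Expression of the gene was related to whether a long intron was seen. GENCODE M21 holds 2172 introns of 100 kb or more in 1126 genes. In both libraries 540 such genes reached 1 TPM, and 408 of them (75.6%) had a member, while of the 444 under 1 TPM in both, 112 (25.2%) had one. The named genes had a median of 4.27 TPM in replicate 1 and 3.56 TPM in replicate 2. Across the 772 members with a TPM, reads and mean TPM had a Spearman rho of 0.54, a description over junctions that share libraries and partly genes.

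The long introns lay early in their transcripts. In the host transcript, which is the one of highest TPM among those that hold the intron, 338 members (43.7%) were intron 1, 179 (23.2%) were intron 2, 78 were intron 3 and 178 came later. Of the named members 382 (49.4%) were the first intron of some transcript, against 29.3% of all 284419 annotated introns. By place, 587 members (75.9%) interrupted coding sequence, 110 (14.2%) lay in the 5′ UTR, 70 in non-coding transcripts and 6 in the 3′ UTR.

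When a long intron belonged to the main transcripts of its gene, its junction was read about as often as shorter junctions of the same transcript. For 624 members at least 3 shorter junctions of the host transcript were in the table, and the member had a median of 0.75 times their median reads. The deposited percent of a gene's TPM per transcript split 619 of them. Where the transcripts with the intron held under 25% of the gene's TPM the median ratio was 0.20 (n = 134), and from 25 to 75% it was 0.72 (n = 166). At 75% or more it was 1.00 (n = 319, quartiles 0.52 and 1.64), with 155 members below their shorter neighbours, 12 equal and 152 above. Only junctions listed in the table entered, which were 7896 of 8777 shorter introns. Introns without a read are left out on both sides, since a member also needs a read to be listed. The ratio and the percent share had a Spearman rho of 0.39 across these 619 members. The percent share was estimated from the same 2 libraries as the junction reads, so the split is not independent of the ratio.

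**Figure D3:**
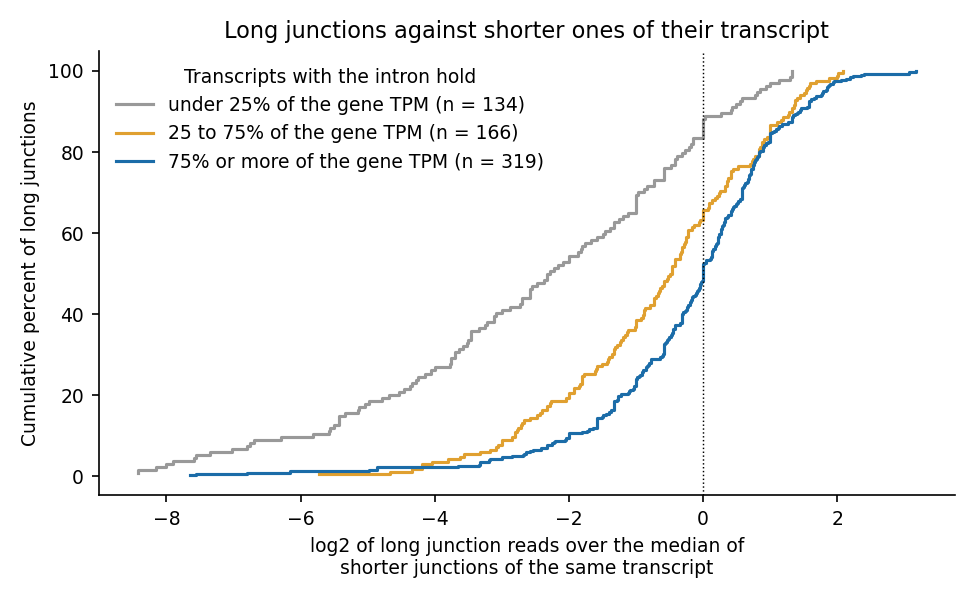
Cumulative percent of members (vertical axis) by the log2 of their reads over the median reads of shorter junctions in the same transcript (horizontal axis), for 3 classes of the gene's TPM held by transcripts with the intron; the dotted line marks equal reads. The curve for 75% or more crosses the line near its middle (155 below and 152 above of 319), and the curve for under 25% lies to the left, with 112 of 134 below.

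Single genes departed from that middle in both directions. Cdh13 introns 2 and 6 stood at 3.45 and 3.43 times the median of 8 shorter junctions, while intron 1 of the same transcript stood at 0.97 times. Babam2 had 1.33 times its neighbours' median although the transcripts with the intron held 6.31 and 9.44% of the gene's TPM, and 5 of its 7 annotated transcripts with the intron were in the transcript tables. Outside the rule for named genes, and chosen after their values were seen among members with at least 3 shorter junctions in the table, Cmss1 had the highest ratio at 20 or more reads (41 and 31 reads across 283 kb, 9 times a median of 8) and Fam172a came next (78 and 64 reads, 8.35 times a median of 17). Low among the rest, besides the minor Ghr joins and also chosen afterwards, were Mbnl1, a splicing regulator, with 16 and 18 reads against a median of 749, and Tspan9, a tetraspanin, with 17 and 5 reads against 443.5. Both of the latter enter their acceptors as minor partners, at 8.90% and 6.20% of the acceptor's reads. Bmp6, a secreted growth factor, was low without a competing partner at its acceptor: its first intron had 10 and 14 reads against a median of 220, with 100% of its acceptor's reads.

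At most well read members both ends were used almost only for the long join. Usage was not computed for flagged junctions as a whole, so it is not read as particular to long introns. Among the 295 members of 20 or more reads, the donor sent a median of 98.9% of its reads to the member's acceptor, and 248 of them sent 90% or more. The acceptor received a median of 98.2% from the member's donor, and in 219 it was 90% or more. Both ends were at 90% or more in 198. A donor with no other listed partner was found in 125 members and an acceptor with none in 102. Usage differed by over 20 percentage points between R1 and R2 at 7 donors and 14 acceptors. The acceptor of Igf1r intron 2, in the gene of the insulin-like growth factor receptor, was a shared one. Of its 424 reads 55.9% came from the long junction, with 64.8% in R1 and 43.9% in R2.

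Ugt1a6b shares its acceptor with many junctions. It encodes an enzyme that joins glucuronic acid to small molecules, and the Ugt1a genes of this cluster have separate first exons and common later exons, so the split of reads and TPM between them is uncertain. Its junction (chr1:90004375-90111618) had 35 reads in R1 and 200 in R2 and gave 37.1% of the 634 reads of an acceptor used by 14 junctions. A pair of Ugt1a7c members ended there too, with 29 and 58 reads and with 11 and 28. In each of these 3 R2 held more reads than R1. The TPM of Ugt1a6b was 8.38 in replicate 1 and 47.9 in replicate 2, while that of Ugt1a7c was 9.20 and 6.38, the opposite direction.

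The members were compared between R1 and R2 by the log2 ratio of R2 to R1, with 1 read added to each and each divided by its total. Over the 295 members of 20 or more reads the ratio had a median of -0.17 and an SD of 0.75, against a median of -0.05 and an SD of 0.70 over 110472 flagged junctions. Over 2-fold higher in R2 were 19 members (6.44%), where the background over all flagged junctions was 4.68%. Over 2-fold higher in R1 were 36 members (12.2%), where the background was 7.84%. Without scaling by the totals the counts were 24 and 26, a more even split. The background was computed with scaling only, so these counts have no background share beside them. The members' shares were above the background in both directions, and members also had fewer reads. At 20 to 99 reads the SD of the ratio was 0.80 in both sets, and at 100 or more it was 0.62 in members and 0.57 in flagged junctions.

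Most of the largest differences rested on few reads. Highest in R2 was Zfp385b, a zinc finger gene, with 3 reads in R1 and 25 in R2 (log2 ratio 2.53), and Ugt1a6b followed among named genes at 2.31. Unnamed junctions of 187447 and 187646 bp, on the same strand of chromosome 14, had 2 and 18 reads and 3 and 18 reads, and their lengths are nearly equal. Whether they are copies between which reads cannot be told apart was not tested. Acyp2, an acylphosphatase gene, had 12 and 48 reads, and Tenm4, a teneurin of the cell surface, had 16 and 53. Their shorter junctions differed less, with log2 ratios of -0.09 and 0.06. Highest in R1 were 2 introns of the membrane protein gene Tmem132c, with 43 and 11 reads and with 26 and 7. Bcas3 had 46 and 12 reads, Mb21d2 had 33 and 9, and Znrf3, a ubiquitin ligase gene, had 22 and 6. Thrb, the gene of thyroid hormone receptor beta, had 21 and 6. Igf1r, with more reads, had 158 and 79 (log2 ratio -1.16), and its shorter junctions summed to 2615 and 1676 (log2 ratio -0.81), the same direction.

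**Figure D4:**
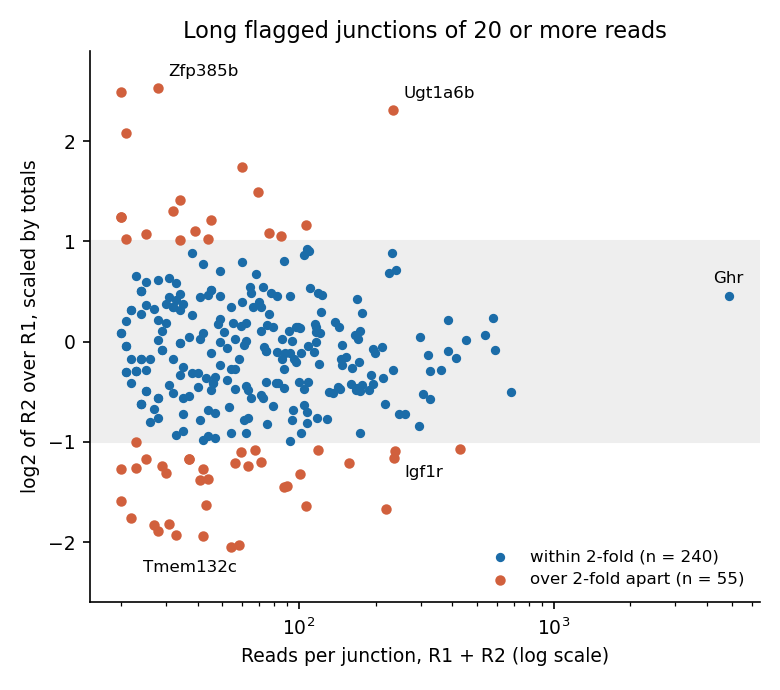
Log2 ratio of R2 to R1, scaled by the totals of R1 and R2, against reads per junction (log axis) for the 295 members of 20 or more reads; the grey band marks ratios within 2-fold, and labels mark the most read member of Ghr and the most unequal members of Ugt1a6b, Zfp385b, Igf1r and Tmem132c. The 55 members over 2-fold apart lie mostly at low reads, and Ghr, at 4887 reads, has a ratio of 0.46.

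For 47 of the 55 members over 2-fold apart, shorter junctions of the host transcript could be summed. They moved in the member's direction in 39 and passed 2-fold in that direction in 4. The members higher in R2 had a median log2 ratio of 1.20 and their shorter junctions 0.27 (n = 14). The members higher in R1 had a median of -1.27 and their shorter junctions -0.39 (n = 33). The shorter junctions were thus nearer to 0 than the members, which had been chosen for their size of difference. The count in the same direction was not computed for members within 2-fold, so it is not read as particular to these. Members of the same transcript, such as those of Tmem132c, enter with the same shorter junctions.

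The genes were also read by 4 lists, each of 50 long genes from textbook knowledge. In each list fewer than 50 genes have an annotated intron of 100 kb or more and so could hold a member. Over all 1126 genes with such an intron, 547 had a member. Of the 540 that reached 1 TPM in both libraries, 408 (75.6%) did. The lists were not matched to these genes by TPM. The transcription and chromatin list had members in 27 of 39 such genes, 50 members in all with a median of 11.5 reads. Besides Nfib and Zbtb20, it held the nuclear factor I gene Nfia with 106 and 89 reads in R1 and R2, and Ebf1, a factor of adipocytes and B cells, with 83 and 78 across 226 kb. Arid1b, a subunit of a chromatin remodelling complex, had 51 and 65 reads, Maml3, a Notch coactivator, had 56 and 39, and Lpp, a LIM protein of adhesion sites that also enters the nucleus, had 76 and 77. Of its 18 members with 20 or more reads, 0 were over 2-fold higher in R2 and 4 in R1, where the background shares were 4.68% and 7.84%. These are small counts, and nothing particular to the list is read from them.

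The adhesion and guidance list had members in 31 of 43 genes with such an intron, 62 members with a median of 11 reads. Ptprg, a receptor phosphatase, had 67 and 102 reads, and Lama2, a laminin chain of the basement membrane around fat and muscle cells, had 76 and 60. Lama2 intron 1 stood at 2.16 times the median of 61 shorter junctions. Of its 25 members with 20 or more reads, 0 were over 2-fold higher in R2 (background 4.68%) and 2 in R1 (background 7.84%), the latter close to the background.

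The signalling list had members in 31 of 37 genes with such an intron, 51 members with a median of 18 reads. Fto, an RNA demethylase linked to body weight, had 104 and 84 reads at its last intron (chr8:94046796-94190180), and Dock1, which activates the GTPase Rac, had 87 and 73. The protein kinase C genes Prkcb and Prkca had 40 and 42 reads and 22 and 54 reads, and Egfr, the epidermal growth factor receptor gene, had 32 and 39. Of the 23 members of this list with 20 or more reads, Prkca was the 1 over 2-fold higher in R2 (background 4.68%), with a log2 ratio of 1.09, and 2 were higher in R1 (background 7.84%). Both counts are near the background.

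The scaffold and trafficking list had members in 30 of 33 genes with such an intron, 54 members with a median of 12 reads. Atrnl1, an attractin relative, had 78 and 95 reads at intron 26 and 50 and 52 at intron 27. Sntb1, a syntrophin of the dystrophin complex, had 93 and 75, and the polarity gene Pard3 had 56 and 59. Exoc6b, an exocyst subunit, had 58 and 47, Wwox had 30 and 48, and the formin gene Fmnl2 had 29 and 42 at a gene level of 2.16 and 2.54 TPM. Of its 21 members with 20 or more reads, 1 was over 2-fold higher in R2 (background 4.68%) and 1 in R1 (background 7.84%), and both counts are near or below the background. The median of all 795 members was 9 reads, below that of each list, and the lists were chosen with earlier results known.

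The introns themselves held read coverage on the strand of their gene. Contigs are stretches of continuous coverage in a second deposited mm9 table over both libraries. A member's intron held a median of 58 contigs on its own strand, which covered 7.18% of its bases, and a median of 1 contig on the opposite strand, which covered 0.089%. Annotated exons lie inside 664 of the named introns. In the 109 with none, the medians were 27 contigs and 2.82% of bases on the own strand, and 1 contig and 0.011% on the opposite strand. Coverage on the own strand was above the opposite strand in 719 of all 795 introns and in 96 of those 109. It was higher in introns of more abundant genes, with a Spearman rho of 0.75 between percent covered and mean TPM. Members that share an acceptor (80) or a donor (47) with another member overlap it. Some bases are therefore counted more than once, here and in the bins below. In the first intron of Ghr 57.0% of bases were covered on its own strand and 0% on the other, and in Zbtb20 intron 3 it was 77.3% and 0.53%.

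Coverage was highest at the 5′ end of the introns. With each intron cut into 10 equal bins from its donor to its acceptor, mean coverage on the own strand was 20.2% in the first bin, 13.5% in the fifth and 7.0% in the last, with medians of 12.5%, 5.21% and 1.66%. The first bin was above the last in 599 introns, below it in 120 and equal in 76. Among introns of members with 20 or more reads it was above in 273 of 295. On the opposite strand the mean stayed between 0.49 and 1.29% in all bins. Annotated exons inside an intron can add coverage, and in the 109 introns with none the mean was 15.5% in the first bin and 2.61% in the last, with the first above the last in 82. In 1848 flagged junctions of 50 to 100 kb the mean was 25.8% in the first bin and 13.9% in the last.

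**Figure D5:**
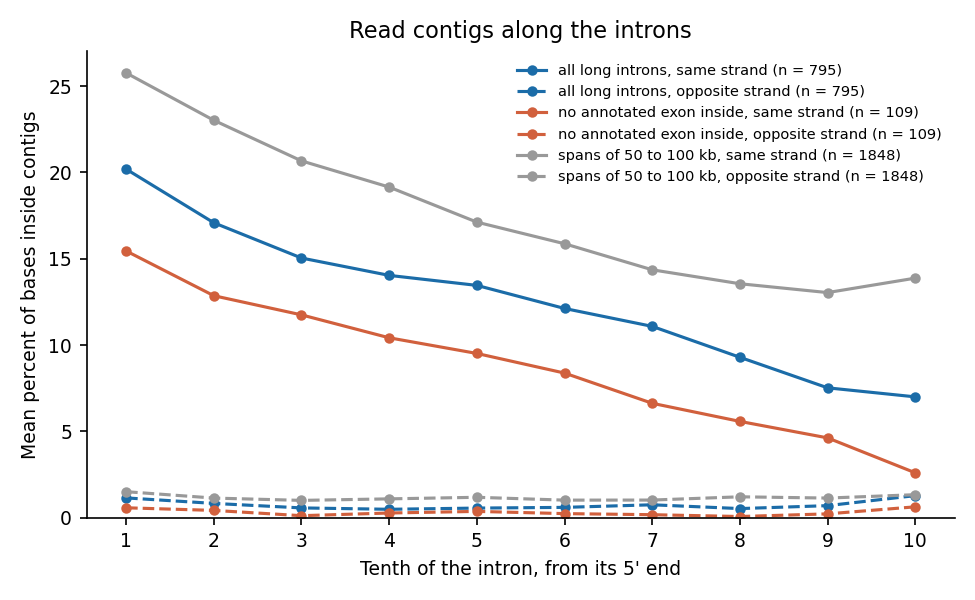
Mean percent of bases inside contigs (vertical axis) for 10 equal bins from the 5′ to the 3′ end of the introns (horizontal axis), on the gene's own strand (solid) and the opposite strand (dashed), for all 795 members, for the 109 with no annotated exon inside and for 1848 flagged junctions of 50 to 100 kb. On the own strand the members' mean falls from 20.2% to 7.0%, and on the opposite strand it is at most 1.29%.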

How the data were processed

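Polyadenylated RNA was measured in 2 libraries of 1 group. The deposited junction table, on mm9 and over both libraries, gave a count of reads per junction, split into R1 and R2, and an IDR fraction. The deposited contig table gave an RPKM and an IDR fraction. The deposited gene and transcript tables, on mm10 with GENCODE M4, gave an expected count, TPM, FPKM and, per the file headers, the percent of the gene's TPM per transcript. Neither aligner, junction caller nor quantifier is named in the sources used here, nor is it stated whether reads that map to several places were counted.

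Ratios of R2 to R1 used counts plus 1, divided by the totals over all junctions, for junctions of 20 or more reads, and a difference over 2-fold was called. Junction coordinates are introns, from 1. The shorter junctions of a transcript were found by length and by distance from the member, within 1000 bp. Intervals are exact binomial ones and cover counting error only. Python 3.11.15, pandas 2.3.3, numpy 2.4.6 and scipy 1.17.1 were used, and the length match and the 2-fold rule were tested on simulated data. The text names the 15 members of most reads, the 8 longest with 10 or more reads, the 6 highest and 6 lowest ratios and up to 8 members per gene list, except where it says otherwise. The members and the lists were chosen with earlier results of these data known. Sequences inside the 5′ UTR are not shown. Values of some single genes are not reported here.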

Additional observations from a re-analysis of the deposited data

How the results depend on the processing

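The number of members was 795 and moved with the rule: 2643 at a span minimum of 50000 bp, 142 at 200000 bp, 468 with an IDR of 0.1 or less and 477 with 2 or more reads in both R1 and R2. Median reads per member, 9 in the sum, ranged from 4 to 5 in R2 or R1 alone and were 15 at 50000 bp, 6 at 200000 bp and 30.5 with an IDR of 0.1 or less. The share with an IDR of 0.1 or less, 58.9%, was 43.5% at a limit of 0.01, 67.2% at 50000 bp and 50.7% at 200000 bp. The share with reads in both, 72.7%, was 50.9% with 3 or more reads in each. The number over 2-fold apart, 55, was 50 without scaling and 54 by median ratio, and rose to 88 at a minimum of 10 reads and to 297 with none. The share over all flagged junctions was computed at the main setting only. The median log2 ratio stayed within 1 SD of -0.17 but was 0.00 without scaling. The genes named numbered 547, 536 and 548 under the 3 ways of matching. Their median of mean TPM, 3.8, was 4.27 as posterior mean TPM and 3.04 as FPKM, and ranged from 3.56 to 4.27 in 1 library alone. Depth limits the members: with a median of 9 reads, a junction seen in 1 of R1 and R2 is not shown to be absent from the other. No paired analysis was possible because there is 1 group.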

Other observations

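Outside the flag A, 8143 junctions of 100 kb or more carried C = 1. Of these 108 had the exact length of an annotated intron of 1 gene on their strand, and 4 matched on the opposite strand. The 108 had a median of 4 reads and 60 of them (55.6%) had reads in both R1 and R2, while the other 8035 had a median of 1 read and 1400 had reads in both. Over all 8143 the most read junction had 3461 reads, and 88 reached 100 reads. Among the 108, most reads were found in Zfand3, with 81 in R1 and 45 in R2 across 130 kb. Ank3, the gene of the membrane scaffold ankyrin-G, had 60 and 30 across 324 kb. Fry followed with 20 and 34 reads, and Rbfox2, a splicing regulator, had 28 and 17. The 108 junctions matched 85 genes by length, 31 of which also held a member. A length match alone does not place a junction in the gene. The junction at chr11:120669306-120801635 matched Pitpnc1, whose member of the same length lies elsewhere, at chr11:107198875-107331204. A further 62181 junctions of that length carried neither flag, 3.10% of them with reads in both R1 and R2, and 0 carried A = 1 with C = 0.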
